A study of Solanum lycopersicum with 9 samples.

Results

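In the table of normalized counts, 54 tomato genes had higher values in each of the 3 libraries of the central zone (CZ) of the shoot apical meristem (SAM) than in any of the 6 libraries from the peripheral zone (PZ) and the leaf primordia (LP). The table holds 34866 genes, of which 4044 had a value of 6 or more in some library. A gene was taken when its lowest CZ value lay above its highest PZ or LP value. The genes that the study lists as chloroplast-targeted or as developmental regulators, and Solyc11g071380.1, were left out. These were 69 of the 4044 genes, so that 3975 could be chosen. All groups were untreated seedlings of the tomato line M82 SP+, 12 to 14 days old and grown with daily light for 11 h and darkness for 13 h. CZ tissue held cells with proplastids and no chlorophyll, PZ tissue cells with some thylakoids and chlorophyll, and LP tissue, cut from the abaxial side of young primordia, cells with well developed thylakoids. Tissue was laser-captured from cryosections of 10 µm, and each library came from 3 pooled sections. The regions were picked by chlorophyll fluorescence, which according to the study does not follow the gene expression domains of the SAM, so the names CZ and PZ stand for areas that overlap with these zones. CEL-Seq, which amplifies the 3′ ends of barcoded transcripts from minute amounts of RNA, was used for all 9 libraries (named CZ1, CZ2 and CZ3, and likewise for PZ and LP). A normalized count is a gene's number of reads divided by a factor of its library.

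Stem cells at the centre of the meristem renew themselves and supply the cells of stems, leaves and flowers. Their daughters move outwards into the PZ, where leaves are initiated, and on into the primordia, where the abaxial side forms the lower face of the blade. Proplastids of the stem cells turn into chloroplasts along this way. Homeobox genes of the STM type keep meristem cells undifferentiated, CUC genes mark organ boundaries, and YABBY genes mark the abaxial side of leaves.

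Libraries held 40286 to 144665 reads on genes, with CZ1 the deepest and LP3 the shallowest, so a single read contributed 0.288 to a value in CZ1 but 1.09 in LP3. A value of 0 has an upper limit of 3 reads by counting error alone, equal to 1.3 in LP1 and 3.28 in LP3. STM averaged 10.5 in CZ against 6.22 in PZ and 0.997 in LP, whereas CUC2 averaged 14.4 in CZ against 16.8 in PZ and 4.25 in LP. YABBY1 averaged 7.60 in CZ against 11.2 in PZ and 26.8 in LP. The summed values of 7 genes of green tissue (Rubisco small subunit, antenna and PSBQ genes) ranged from 79.9 to 228.7 in CZ, from 157.3 to 266.9 in PZ and from 283.6 to 430.4 in LP. CZ2, at 228.7, lay inside the PZ range, and neither STM nor CUC2 separated the CZ libraries from all PZ libraries. The bearing of these marker levels on the choice of genes was not tested. Fewer cells of a type and less RNA per cell cannot be told apart in such tissue samples.

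Together with the genes left out, 57 of the 4044 genes (1.41%) were highest in all CZ libraries. If the 9 libraries were alike, chance would give 1 gene in 84, which is 48.1 genes. With this minimum and the authors' scaling, the observed number thus lay close to the number that chance gives. By the same measure 68 genes (1.68%) were highest in all PZ libraries and 113 genes (2.79%) in all LP libraries.

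The number of genes also depended on the scaling of the libraries. With the same total in every library 73 genes met the rule, with DESeq2 size factors 60 and with TMM scaling 124, and of the 54 genes 52, 49 and 49 were among them in this order of scalings. TMM scaling gave CZ1 a smaller divisor than the authors' scaling did (1.74 against 2.22), and so higher values. It also gave smaller divisors to LP1 (1.26 against 1.485) and CZ3, and larger ones to all other libraries. Which of these changes raised the number of genes was not tested. The median difference of all genes tested between CZ and the other zones was −0.07 on the log2 scale with the authors' scaling and 0.09 with TMM scaling. CZ1, whose normalized total of 41745.7 was the lowest of the 9 libraries, was the lowest CZ library for 29 of the 54 genes, CZ2 for 11 and CZ3 for 14. In all, 47 genes met the rule under each of the 3 other scalings.

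**Figure D1:**
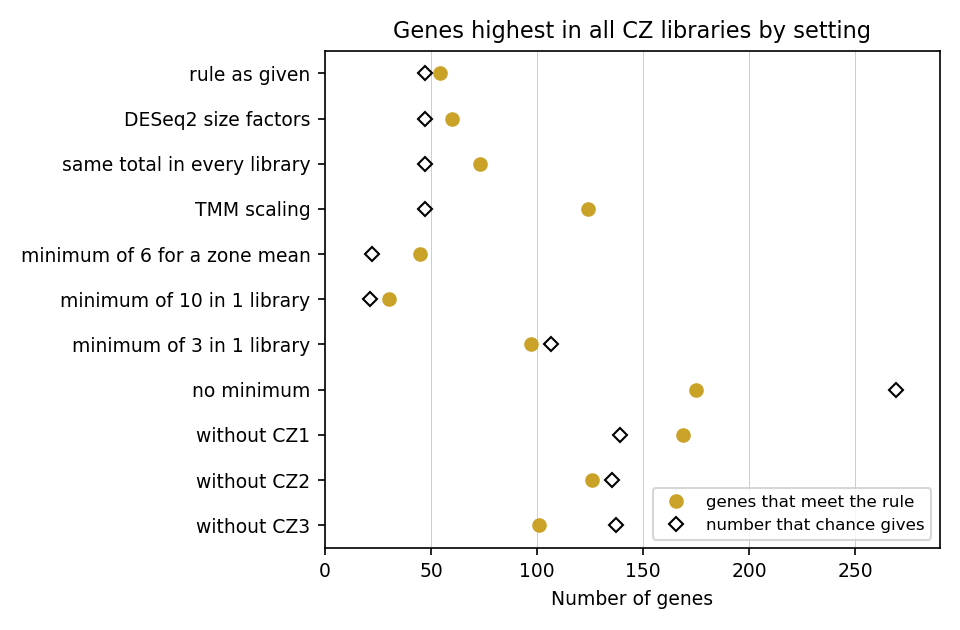
Number of genes highest in all CZ libraries (filled circles, x axis) and the number that chance gives (open diamonds) for 11 settings (y axis), with the listed genes left out. The rule as given found 54 genes against 47.3 by chance, TMM scaling found 124, and a setting without CZ1, CZ2 or CZ3 sets only 2 CZ libraries above the other 6, for which chance gives more genes.

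The margin was narrow for most genes. The lowest CZ value exceeded the highest PZ or LP value by at least 1.5-fold for 11 genes, by at least 2-fold for 3 and by at least 3-fold for 1, with a median ratio of 1.17. In reads, 27 genes would no longer meet the rule with 2 reads fewer in a single CZ library, and 33 with 2 reads more in a single PZ or LP library. Just inside the rule, Solyc12g044600.2 had a lowest CZ value of 5.19 and a highest other value of 5.18. Solyc06g075850.1 (80.03 against 79.31), Solyc10g081370.1 (39.81 against 39.32) and Solyc02g076840.2 (3.75 against 3.70) followed. Just outside it were Solyc03g120010.2 (6.64 against 6.66), Solyc01g110570.2 (4.33 against 4.37), Solyc12g096040.1 (5.34 against 5.40) and Solyc11g069440.1 (29.78 against 30.23). For each of these 4 genes inside the rule, a change of 1 or 2 reads in a single library would have ended its place.

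**Figure D2:**
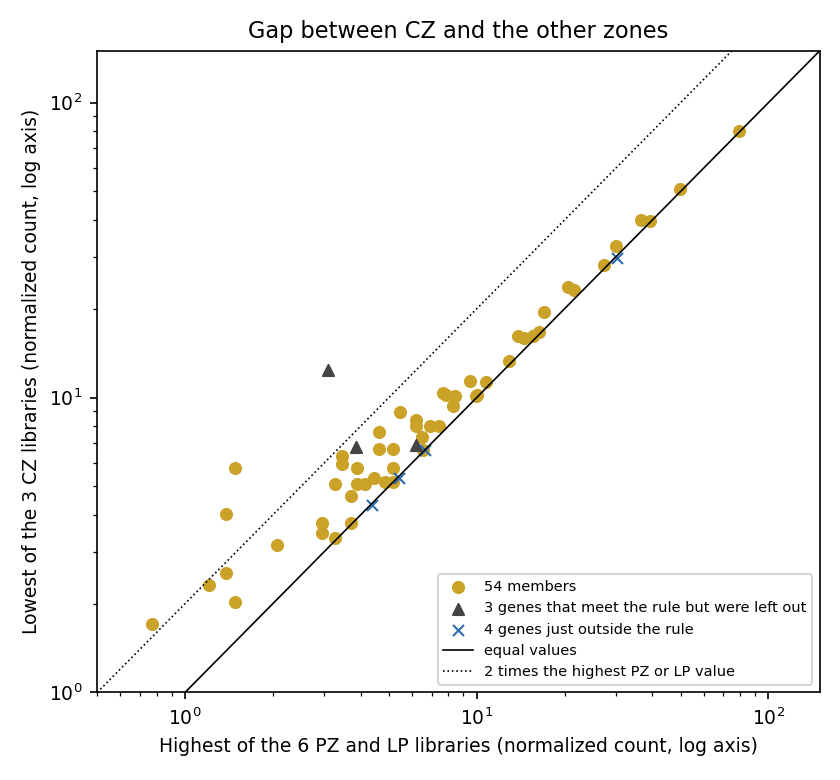
Lowest of the 3 CZ values (y axis) against the highest of the 6 PZ and LP values (x axis), both as normalized counts on log axes, for the 54 members (circles), the 3 genes that meet the rule but were left out (triangles) and the 4 genes just outside it (crosses). Points on the solid line have equal values, and 3 members lie above the dotted line of a 2-fold gap, all with a highest PZ or LP value below 1.5.

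The widest gap was that of Solyc09g066010.2, on chromosome 9 from 64285093 to 64287344 (build SL2.50, as for all positions here). Its normalized counts were 5.77, 6.67 and 6.81 in CZ, 0.77, 1.48 and 0 in PZ, and 0.43, 0 and 0 in LP. The CZ libraries were close to each other, and no other library had more than 2 reads. Its mean was 6.42 ± 0.564 in CZ and 0.447 in the other 6 libraries, a difference of 2.45 (CZ minus the other zones) on the log2(normalized count + 1) scale, which understates the change of genes with few reads. The description column of the table names this gene no further, as is the case for all 54.

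Solyc02g077960.1, on chromosome 2 from 42787428 to 42788527, showed the next widest gap when values below 3 reads are set to 3 reads. It had 4.04, 4.67 and 6.81 in CZ, 0, 0 and 1.38 in PZ, and 0, 0.60 and 1.09 in LP. Its difference between CZ and the other zones was 2.1 on the log2 scale. Solyc04g009550.2 on chromosome 4 followed with 6.35, 9.34 and 10.21 in CZ, 0, 2.96 and 2.07 in PZ, and 3.45, 0 and 2.18 in LP (log2 difference 2.01). For these genes the PZ and LP values overlapped, and some libraries of each zone had no read.

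Further genes with a wide gap were similar in form. Solyc08g075840.2 averaged 6.23 ± 0.384 in CZ against 2.15 ± 1.34 in PZ and 1.77 ± 1.08 in LP (means and SD of 3 libraries, as for all such values). Solyc09g073000.2 had 10.67, 8.0 and 7.66 in CZ, 4.63, 2.96 and 2.07 in PZ, and 3.89, 1.21 and 3.28 in LP. Solyc07g006820.2 averaged 5.43 ± 0.496 in CZ against 1.23 ± 1.16 in PZ and 2.18 ± 1.23 in LP. In each of these genes the PZ and LP libraries overlapped with each other. Of the other genes with a wide gap, Solyc01g081150.2 had 10.39, 12.0 and 16.16 in CZ, 3.08, 4.44 and 5.52 in PZ, and 0.86, 2.41 and 7.65 in LP. Solyc06g008510.2 had 8.08, 6.67 and 8.51 in CZ, 4.63, 0.74 and 0.69 in PZ, and 3.45, 1.21 and 2.18 in LP. Solyc02g080430.2 had 5.77, 7.34 and 9.36 in CZ, whereas its 6 other libraries lay between 2.31 and 3.89. The other libraries of Solyc02g080430.2 were thus close to each other, while those of Solyc06g008510.2 were spread. Solyc09g009620.1 had 8.37, 20.01 and 10.21 in CZ, with 6.17 as its highest other value. Of the 54 genes, 29 had a CZ mean below 10, and in these the CZ mean was 1.72 to 14.9 times the mean of the other libraries. At least 1 PZ or LP library had no read for 15 genes, and 39 genes had reads in all 9 libraries. In 26 genes no PZ or LP library reached the minimum of 6, so that they entered the comparison through CZ alone and had to be high there.

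By the median ratio of the CZ mean to the mean of the other libraries, the genes with many reads differed less between the zones. Solyc06g075850.1, the most abundant, had 87.70, 80.03 and 101.24 in CZ, 78.64, 72.55 and 79.31 in PZ, and 76.00, 60.35 and 73.19 in LP. Its CZ mean was 1.22 times that of the other libraries, the smallest ratio of all 54. Solyc06g007610.2 had 55.97, 64.02 and 51.04 in CZ, 35.47, 43.68 and 49.65 in PZ, and 38.00, 42.85 and 48.07 in LP, with a ratio of 1.33. In both genes the distance between the lowest CZ library and the highest other library was smaller than the SD within the CZ. Solyc06g075850.1 met the rule with the same total in every library, but not with TMM scaling or DESeq2 size factors.

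Solyc06g007470.2, at 1479227 to 1482088 on chromosome 6, had 44.71, 40.02 and 52.74 in CZ, 28.53, 31.09 and 36.55 in PZ, and 26.34, 30.78 and 27.31 in LP. It would have lost its place with 6 reads fewer in CZ2. Solyc11g068510.1 had 23.66, 24.01 and 24.67 in CZ, 19.27, 3.70 and 14.48 in PZ, and 17.70, 20.52 and 16.39 in LP. Its CZ libraries were nearly equal, whereas PZ2 stood below the other PZ libraries. Solyc09g057650.2 averaged 29.3 ± 5.61 in CZ against 16.1 ± 7.07 in PZ and 14.0 ± 4.53 in LP. Solyc10g081370.1 averaged 49.8 ± 14.4 in CZ against 31.3 ± 8.69 in PZ and 29.2 ± 4.91 in LP, and 1 read more in PZ1 would have ended its place. Over the 13 genes with a CZ mean of 20 or more, the median ratio of the CZ mean to the mean of the other libraries was 1.65.

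**Figure D3:**
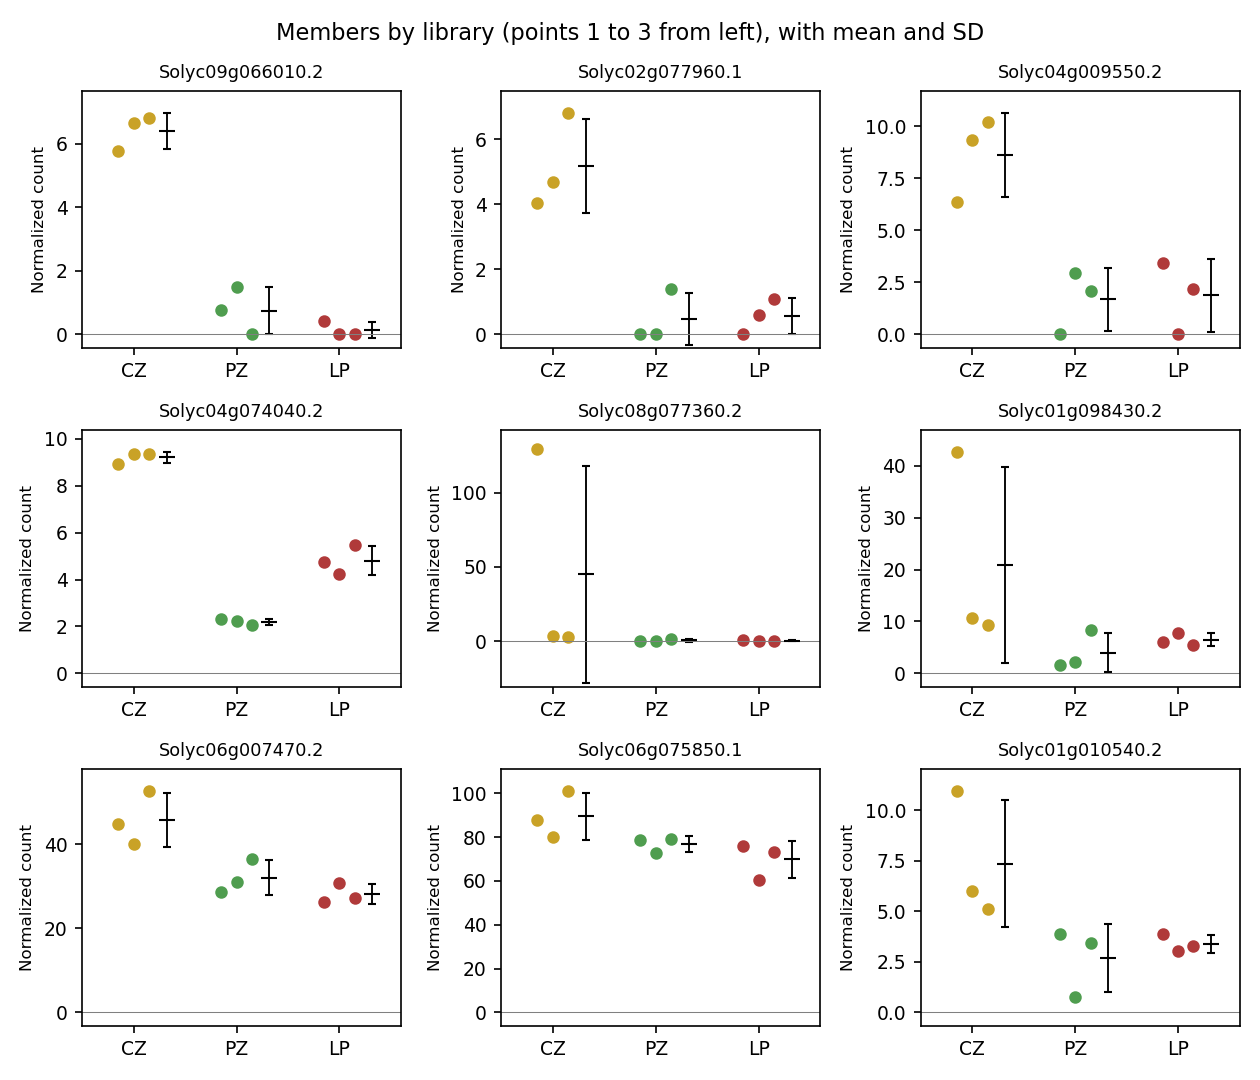
Normalized counts (y axis, linear) of 9 members in the 3 CZ, 3 PZ and 3 LP libraries (points, replicates 1 to 3 from left), with the zone mean and its SD (bars). Solyc09g066010.2 has 5.77 to 6.81 in CZ and at most 1.48 elsewhere, whereas Solyc08g077360.2 is high in CZ1 alone and Solyc06g075850.1 differs little between the zones.

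In 8 genes a single CZ library had over 2 times the next CZ value. Solyc08g077360.2, at 61239675 to 61246355 on chromosome 8, had 129.82 in CZ1, which is 450 reads, against 3.33 and 2.55 in CZ2 and CZ3. It had 0, 0 and 1.38 in PZ, and 0.43, 0 and 0 in LP. With only 3 reads in the 6 other libraries together, its pooled ratio between CZ and the other zones was 223.4. This ratio was that of CZ1, and its direction was set by the choice of the gene. Without CZ1 the gene did not reach the minimum count. Its span overlaps that of Solyc08g077350.2, which had 23 reads.

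Solyc01g098430.2 likewise had 42.70 in CZ1 against 10.67 and 9.36 in CZ2 and CZ3, with 1.54, 2.22 and 8.28 in PZ, and 6.05, 7.85 and 5.46 in LP. Solyc05g016710.1 was highest in CZ2, with 16.73, 35.35 and 10.21 in CZ, 10.02, 3.70 and 7.59 in PZ, and 1.3, 1.81 and 7.65 in LP. The other 5 such genes had CZ means below 10. Among them Solyc10g085000.1 had 3.17, 3.33 and 6.81 in CZ, 0, 0.74 and 2.07 in PZ, and 1.3, 0 and 0 in LP. CZ3 was the highest CZ library for 31 of the 54 genes, CZ2 for 12 and CZ1 for 11.

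Descriptions were at hand for 2 of the 54 genes. Solyc01g010540.2 encodes a ribosomal protein with an S4 domain; proteins of this kind bind ribosomal RNA early in the assembly of the small subunit. It had 10.96, 6.0 and 5.10 in CZ, 3.85, 0.74 and 3.45 in PZ, and 3.89, 3.02 and 3.28 in LP. The CZ mean was 2.42 times that of the other libraries, and the closest CZ library would have lost its rank with 2 reads fewer. Solyc01g008420.2 encodes a transporter of the MATE efflux family, whose members move organic acids, alkaloids or other small molecules out of the cytosol. It had 7.21, 2.00 and 1.70 in CZ, 0.77, 0 and 0.69 in PZ, and no read in LP. These are 30 reads in CZ and 2 in the other zones (pooled ratio 21.9), and CZ2 and CZ3 had only 3 and 2 reads. The direction of this ratio was set by the choice of the gene. CZ1 carried this gene too, and without CZ1 it did not reach the minimum count. The supplementary table of the study lists different values for this gene, and the deposited ones are given here.

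Among the genes left out, 3 met the rule. The MADS-box gene SVP (Solyc04g076280.2), of a family that controls flowering time, had 6.92, 10.00 and 11.06 in CZ, 6.17, 5.92 and 5.52 in PZ, and 2.16, 3.02 and 4.37 in LP. The AP2-type transcription factor gene (Solyc03g123430.2) had 8.37, 8.0 and 6.81 in CZ, 3.85, 1.48 and 2.07 in PZ, and 1.3, 1.21 and 2.18 in LP. Solyc11g071380.1 had a lowest CZ value 4.03 times its highest other value, wider than the gap of any of the 54 genes. Both SVP and AP2 had gaps within the range of the 54 genes.

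The order of LP and PZ played no part in the choice of the genes, but the rule held all LP and PZ values below the CZ values, which leaves less room for a difference between LP and PZ than among all genes tested. Counts over all genes are given beside those of the 54 genes as background, and nothing is read from fewer differences among the 54. Genes were called by limma, with zone as the only factor, at 1.5-fold or more with an adjusted p not above 0.05. Between LP and PZ 0 of the 54 genes were called, where 0.148% of all genes tested were. The smallest adjusted p among them was 0.605, and 1 of the 54 genes (1.85%) against 7.07% of all genes tested was under an unadjusted p of 0.05. That gene was Solyc09g065170.1, with 2.59, 7.85 and 7.65 in LP and 3.08, 1.48 and 0.69 in PZ, while its CZ values were 10.67, 14.01 and 10.21 (log2 difference 1.34, adjusted p = 0.605 from limma). Its LP and PZ libraries overlapped. edgeR and DESeq2 on the recovered reads also called 0 of the 54 genes, each with 1 gene under an unadjusted p of 0.05.

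The log2 difference between LP and PZ was below 0 for 33 of the 54 genes and above 0 for 21 (38.9%), against 47.8% above 0 over all genes tested. Its median was −0.14 over the 54 genes and −0.04 over all genes tested. The order of these medians turned without LP2, with −0.03 over the 54 genes and −0.10 over all genes tested. With TMM scaling the median was −0.03 over the 54 genes and 0.05 over all genes tested. Without LP1, LP3, PZ1, PZ2 or PZ3 the median over the 54 genes was −0.19, −0.08, −0.10, −0.08 or −0.06. Over all genes tested it was −0.01, −0.03, −0.04, −0.02 or −0.02 in this order. The size of the median over the 54 genes thus varied with single libraries. LP and PZ libraries did not overlap for 5 genes (9.26%), where this held for 11.4% of all genes tested. Of the 5, 3 were higher in LP (5.46% of all genes tested) and 2 lower (5.93%). Solyc04g074040.2 had 4.75, 4.22 and 5.46 in LP and 2.31, 2.22 and 2.07 in PZ, with 8.94, 9.34 and 9.36 in CZ (log2 difference between LP and PZ 0.86, standard error 0.60, adjusted p = 0.803 from limma). All 3 zones were thus separate in this gene, with PZ the lowest. Solyc06g083820.2 had 27.21, 23.54 and 27.31 in LP and 20.05, 15.55 and 15.17 in PZ (log2 difference 0.60, standard error 0.36, adjusted p = 0.755 from limma). Its CZ values of 35.77, 33.35 and 28.07 came close to the LP values, and with each of the 3 other scalings the gene no longer met the rule. Solyc09g066500.2 had 21.59, 19.91 and 19.66 in LP and 30.07, 24.43 and 29.65 in PZ, with 32.60, 36.68 and 39.98 in CZ (log2 difference −0.44, standard error 0.34, adjusted p = 0.822 from limma). The rule set its CZ values highest, and its LP values lay below its PZ values without overlap, though that step did not pass the test. The remaining separate genes were Solyc02g090200.2, higher in each LP library, and Solyc02g076840.2, lower in each LP library, both at values below 4 in LP and PZ.

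**Figure D4:**
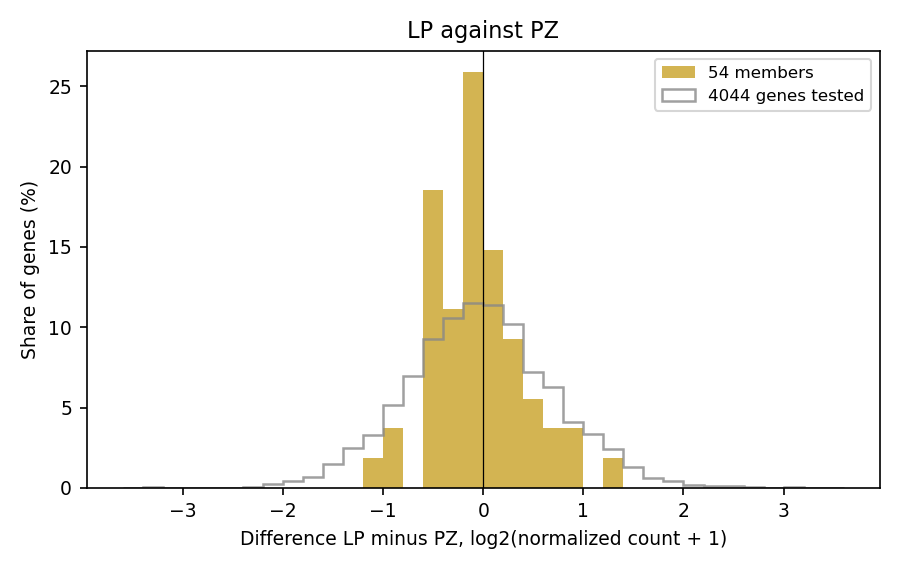
Share of genes (y axis, %) by the difference LP minus PZ on the log2(normalized count + 1) scale (x axis), for the 54 members (filled) and the 4044 genes tested (line). The medians are −0.14 for the members and −0.04 for all genes tested, an order that turns without LP2 (−0.03 and −0.10), and no member was called.

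The 54 genes together took 2.00 ± 0.144% of the CZ reads against 0.966 ± 0.0952% in PZ and 0.956 ± 0.0902% in LP. The CZ level follows from the choice of the genes. The LP shares of 1.05%, 0.877% and 0.936% overlapped with the PZ shares of 1.06%, 0.870% and 0.969%. In CZ1 the share was 2.16%, and 1.85% without Solyc08g077360.2, against 1.87% and 1.96% in CZ2 and CZ3 without that gene. The highest of the other 6 libraries lay in PZ for 35 genes and in LP for 19, with PZ1 highest for 13 genes and LP2 for 4.

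All 54 genes are nuclear. Chromosome 9 holds 10 of them (18.5%), where 7.37% of the genes tested lie on it, and chromosome 3 holds 1 (1.85%), where 10.7% of the genes tested lie on it. These shares were not tested. Neighbours within 100 kb were found for 3 pairs. Solyc11g069890.1 and Solyc11g069910.1 lie 15.5 kb apart on chromosome 11, with 1 gene of the table between them. Solyc02g090160.2 and Solyc02g090200.2 lie 23.4 kb apart on chromosome 2, and Solyc01g098320.2 and Solyc01g098430.2 lie 56.4 kb apart on chromosome 1. Solyc11g069890.1 averaged 8.39 ± 0.342 in CZ against 4.39 ± 2.54 in PZ and 1.74 ± 2.31 in LP, and Solyc11g069910.1 averaged 20.4 ± 6.23 in CZ against 10.1 ± 1.66 in PZ and 7.87 ± 4.97 in LP. The PZ mean lay above the LP mean in both genes of this pair, as in 33 of the 54 genes, with overlap between LP and PZ. The spans of 8 of the 54 genes overlap that of another gene, with 0 to 99 reads on the other gene, and whether reads were assigned by strand is not given in the sources used here. The median gene span was 3364 bp for the 54 genes and 4148 bp for all genes tested. Their median normalized count over all libraries was 5.61 against 4.14, but this count includes the CZ values that the rule set highest.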

How the data were processed

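The values are normalized counts (a signal) as deposited by the authors, who mapped the cDNA reads with Bowtie2 2.1.0 (local mode), counted them per gene of the tomato build SL2.50 plus chloroplast with an HTSeq-based script, and ran DESeq2 1.4.0. The method of normalization and the use of molecular identifiers in counting are not given in the sources used here. Division by a step per library gave whole reads for 100% of values (tolerance 0.0051). Between replicates the chi-square per degree of freedom was 2.84 to 3.91, so no library was counted as a duplicate. The study calls the libraries biological replicates, but which plants gave which is not stated, so p-values measure the spread between libraries, which may share plants. LP and PZ were compared with limma 3.58.1 in R 4.3.3 on log2(normalized count + 1), fitting all 9 libraries by zone with a mean-variance trend, for the 4044 genes with a value of at least 6 in at least 1 library, with Benjamini-Hochberg adjustment over these genes. Alternatives were other pseudocounts, minimums and scalings, edgeR 4.0.16 and DESeq2 1.42.0 on recovered reads, which called 25 and 0 genes, a block for the replicate number, fewer libraries, and a wider gap. The code of these steps was run on simulated data, and nothing is read from that run about how large a change could go uncalled. No p is given for the values that chose the genes, nor for their summed share of reads. Genes named are the 15 with the widest gap (values under 3 reads set to 3 reads), the 10 with the highest CZ mean, those with a description, those whose LP and PZ libraries do not overlap, and those next to the limit. Others were added after their values were seen (the neighbouring pairs and Solyc05g016710.1). The members and lists were chosen with earlier results of these data known. The reference gene list holds 0 of the IDs used here, so names, sequences and gene groups were not analysed; the 2 descriptions come from the study's supplementary table, in the part read here. For Solyc01g008420.2 that table lists values that differ from those deposited; the deposited ones, whole multiples of the step, were used. Python 3.11.15, pandas 2.3.3, scipy 1.17.1 and matplotlib 3.10.9 were used.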

Additional observations from a re-analysis of the deposited data

How the results depend on the processing

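The number of genes highest in all CZ libraries (54) was 97 with a minimum of 3 in 1 library, 30 with a minimum of 10, 175 with no minimum, 110 with a minimum of 6 recovered reads, 124 with TMM scaling and 11 with a gap of at least 1.5-fold. Leaving out 1 library gave 65 to 169 genes. Chance then gives more too: 139.2 genes without CZ1, against 169 found, 135.4 without CZ2, against 126 found, and 137.1 without CZ3, against 101 found. Among the PZ and LP libraries, leaving out LP1 gave the fewest genes (65, against 68.9 by chance). Leaving out PZ1 gave the most (86, against 66.8 by chance). Without CZ1, CZ2 or CZ3, 52, 50 and 48 of the 54 genes met the rule, since the others no longer reached the minimum. With no minimum 1 gene in 84 is 269.5 genes, and with a minimum of 3 it is 106.5, both above the numbers found. Genes with reads in fewer than 3 libraries cannot meet the rule, however, and ties at 0 lower the chance. These 2 numbers are thus upper limits, and nothing is read from fewer genes found. A minimum of 10 gave 30 genes against 21.3 by chance, and TMM scaling 124 against 47.3. A zone mean of at least 6 gave 45 against 22.05, but this filter uses the zones, so that 1 in 84 need not hold for it. None of these differences from chance was tested. The number of genes called between LP and PZ (6) was 25 by edgeR, 11 with a replicate block, and 0 by DESeq2, with only the PZ and LP libraries, with a zone mean of at least 6 and with an overall mean of at least 3; leaving out 1 library gave 0 to 8, with 0 without LP1. Of the 54 genes, 0 were called under any of these, though only 45 were tested with either filter on a mean. Without CZ1, CZ2 or CZ3, 52, 50 and 48 of them were tested. Libraries share only a replicate number: the deviations of same-numbered LP and PZ libraries correlated at 0.04, 0.11 and 0.06. Of the differences between CZ and the other zones of the 29 named genes, whose sign follows from how they were chosen, 13 moved by more than the spread between libraries, with another pseudocount or TMM scaling, and 364 did not.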
